A study of Caenorhabditis elegans with 9 samples.

Results

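The genes described here encode subunits of the mitochondrial respiratory chain and ATP synthase that are carried on nuclear chromosomes. They were taken by name from a list of 41 *Caenorhabditis elegans* genes, and the rule uses no threshold on a measured value, although the list was drawn up with earlier results of these data known. Of these, 40 were found among the 20306 entries of the deposited table of CPM (counts scaled to the library total), 38 by gene name and 2 (*nduf-9* and *nduf-11*) by sequence name. They comprised 13 genes of complex I, 4 of complex II, 6 of complex III, 1 of cytochrome c, 7 of complex IV and 9 of complex V. The remaining gene, *nuo-3* of complex I, was not found there under either name and is described apart. RNA sequencing had been done on whole animals at the fourth larval stage (L4), in 3 groups of 3 libraries. The first group was mutant for *nhr-114*, which encodes an HNF4-like nuclear receptor (allele gk849), and came from mothers given 8 µM vitamin B12 (mutant B12). The second had the same allele and came from mothers given vehicle (mutant vehicle). The third was wild type from mothers given vehicle. Wild type with maternal B12 was not analysed here, so the effect of B12 was measured in the mutant alone.

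In the respiratory chain, complex I takes electrons from NADH and complex II takes them from succinate, and both pass them to ubiquinone. Complex III hands them to the small carrier cytochrome c, and complex IV passes them to oxygen, while complex V, the ATP synthase, uses the proton gradient that complexes I, III and IV build. Each complex except complex II joins nuclear-encoded subunits with subunits encoded in mitochondrial DNA, and in worms the germ line is known for its large number of mitochondria. Vitamin B12 is the cofactor of methylmalonyl-CoA mutase, whose product enters the citric acid cycle at succinyl-CoA, and of methionine synthase.

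Estimated counts summed to between 14461993 and 16659895 per library. *nhr-114* had 3, 2 and 4 counts in the mutant B12 libraries and 3, 4 and 4 in the mutant vehicle libraries, against 6954, 8027 and 7436 in wild type, so the genotype labels held. These counts cannot tell mutant B12 from mutant vehicle. Markers of germ line, body-wall muscle, pharynx, intestine, hypodermis and neurons were found as whole animals hold them, and none that the files list was at 0 in all libraries. Markers of spermatogenesis differed between groups, and their summed level was 1068 to 1333 CPM in mutant B12, 219.5 to 513 CPM in mutant vehicle and 725 to 1299 CPM in wild type. In whole animals, fewer cells of a type and less RNA per cell cannot be told apart. Separate cultures for the replicates are not stated in the labels. The p-values then cover only how far these libraries vary within a group, and that variation may be technical.

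Most transcripts of nuclear-encoded respiratory chain subunits changed little in the 3 comparisons. The 40 genes held 1.56% to 1.66% of counts in mutant B12, 1.63% to 1.68% in mutant vehicle and 1.59% to 1.76% in wild type, and these ranges overlapped (exact two-sided permutation p = 0.6 for mutant vehicle against wild type, 0.3 for mutant B12 against mutant vehicle and 0.3 for mutant B12 against wild type, n = 3 each). Summed TPM (corrected for transcript length) was 16317 to 17078 in mutant B12, 17828 to 18238 in mutant vehicle and 16785.5 to 18781 in wild type. Mutant B12 lay below mutant vehicle without overlap. By complex it lay below wild type without overlap for complexes I, II, III and V, not for IV or cytochrome c. The median change of all tested genes on log2(TPM + 1) was -0.16 and -0.22 in mutant B12 against mutant vehicle and wild type. In mutant vehicle against wild type, 4 genes rose (*cox-7C*, *cyc-2.1*, *asg-2* and *nduf-6*) and 2 fell (*asb-1* among them), at an adjusted p under 0.05 from edgeR's quasi-likelihood test with Benjamini-Hochberg adjustment over 14795 genes. These 6 of 40 stand beside 36.6% called among all tested genes, 18.3% in each direction, and 42.5% among the 1878 genes averaging at least 100 CPM, the level reached by 38 of the 40. In mutant B12 against mutant vehicle 6 rose (among them *asb-1*, *asg-1*, *nuo-6*, *cox-6C* and *cox-5A*) and 1 fell (*sdhd-1*), beside 46.4% of all tested genes (22.6% higher and 23.8% lower) and 51.4% of the abundant ones. In mutant B12 against wild type 4 rose (*cox-7C*, *cox-6C*, *asg-2* and *asg-1*), beside 13.4% called of all tested genes, 7.28% higher and 6.13% lower, and 24.3% of the abundant ones. In that comparison 0 fell by edgeR and 0 by DESeq2, with 1 lower at an unadjusted p under 0.05. The share of the 40 genes that was called was thus lower than that of all tested genes in the comparisons of mutant vehicle with wild type and of mutant B12 with mutant vehicle, and near it in that of mutant B12 with wild type. It was lower than that of the abundant genes in each comparison.

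The changes were also small. The median log2 fold change of the 40 was 0.00 in mutant vehicle against wild type, 0.04 in mutant B12 against mutant vehicle and 0.06 in mutant B12 against wild type, beside 0.01, -0.04 and 0.00 over all tested genes. The median size of change, regardless of direction, was 0.07, 0.13 and 0.10 in the same order, beside 0.25, 0.29 and 0.19 over the genes averaging at least 100 CPM. For 34, 34 and 33 of the 40 genes the 95% interval of the log2 fold change lay within ±0.5. The shares of abundant genes for which it did were 51.01%, 47.4% and 61.4%. None of the 40 changed by 2-fold or more, whereas 13.8%, 15.2% and 8.57% of the abundant genes did. Each pair of the 3 comparisons shares a group of libraries, and their values are therefore given side by side.

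**Figure D1:**
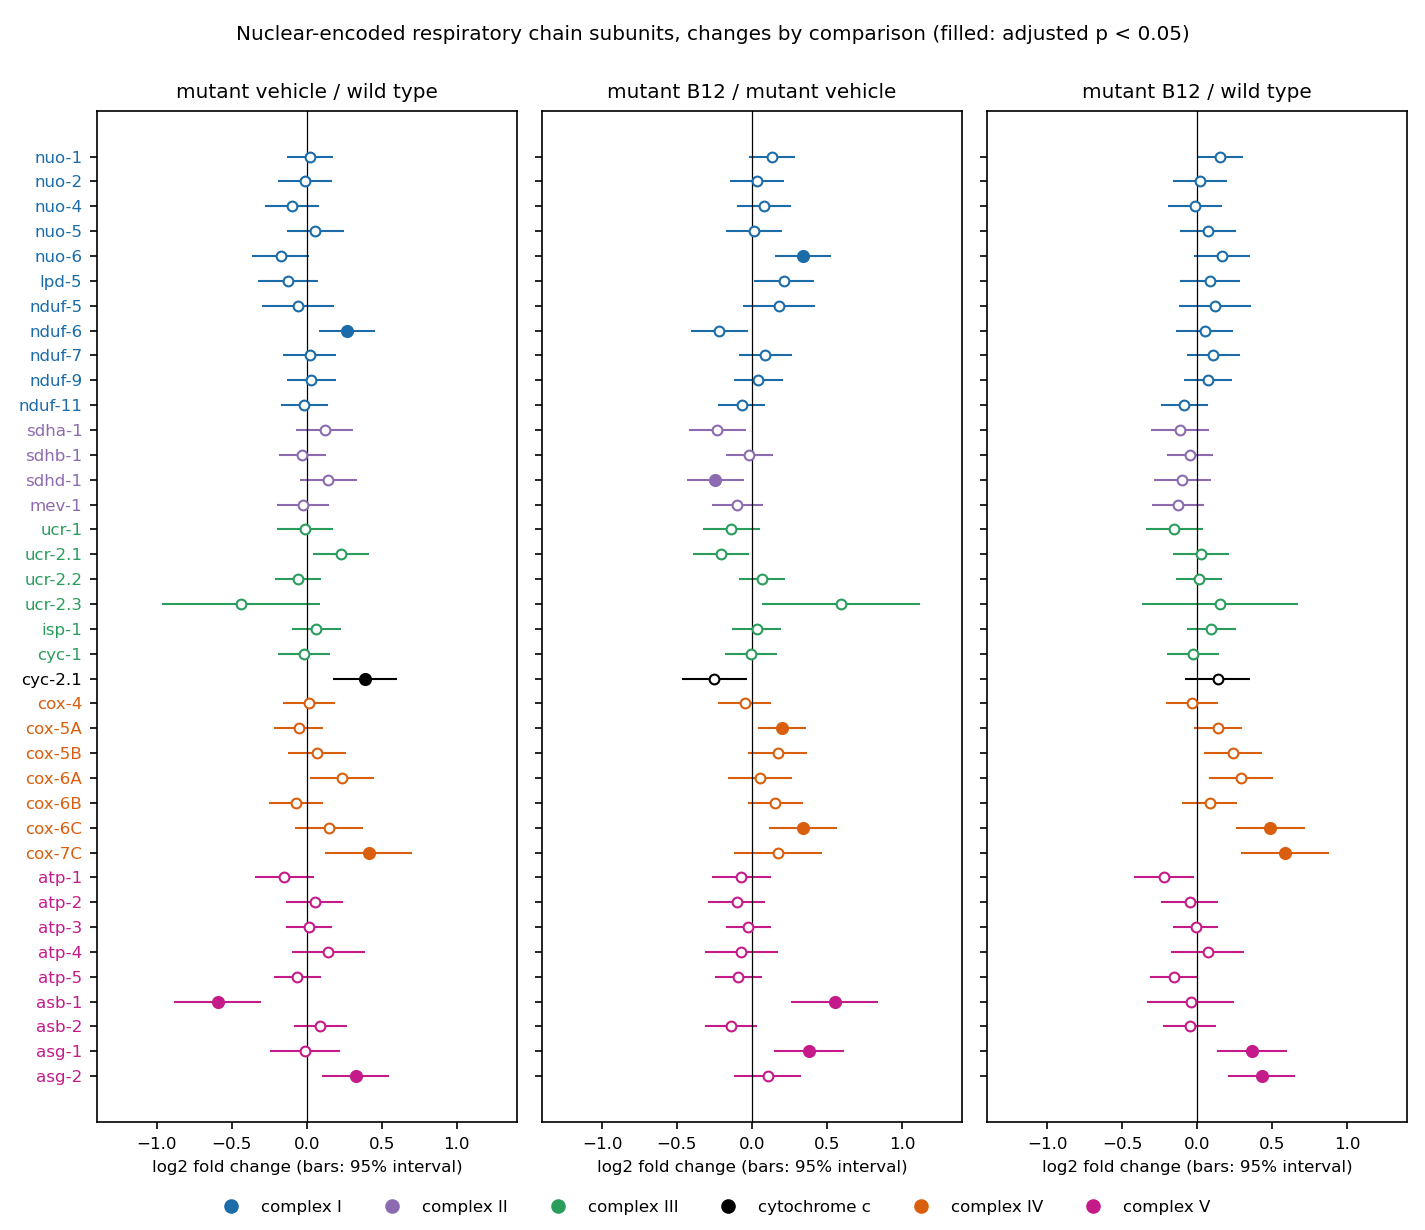
Log2 fold change (horizontal axis) of 38 of the nuclear-encoded subunits, grouped by complex, in each of the 3 comparisons, with 95% intervals; filled points have an adjusted p under 0.05. Most points lie within ±0.5, and *asb-1* lies lowest in the left panel and, below *ucr-2.3*, second highest in the middle one.

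The counts of calls rested on few libraries and on the scaling. In mutant vehicle against wild type the 6 calls fell to 2 when replicate 2 of wild type or of mutant vehicle was left out, and to 3 when mutant vehicle replicate 1, mutant vehicle replicate 3 or wild-type replicate 3 was left out. With upper quartile scaling that comparison had 1 rise and 3 falls in place of 4 and 2, beside 2263 rises and 3097 falls over 14795 tested genes. In mutant B12 against mutant vehicle the 7 calls became 4 without mutant vehicle replicate 2 and 3 without mutant vehicle replicate 3. Upper quartile scaling gave 12 rises with no fall there, beside 3709 rises and 2945 falls over 14795 tested genes. In mutant B12 against wild type the 4 calls became 2 without wild-type replicate 2 and 1 (*cox-6C*) without mutant B12 replicate 3. On log2(TPM + 1), where TPM is a level corrected for transcript length, the median of all tested genes was -0.16 and -0.22 in the comparisons of mutant B12 with mutant vehicle and with wild type. There limma called 1 rise and 12 falls, and 1 rise and 14 falls, among the 40, and 1 rise and 4 falls in mutant vehicle against wild type. Over all 14795 tested genes it called 2711 rises and 4827 falls, 779 and 3751, and 2246 and 3301, in the same order. On log2(CPM + 1) limma called 5 rises and 5 falls in mutant B12 against mutant vehicle, beside 3161 and 3784 over 14432 genes. In mutant B12 against wild type it called 3 rises and 2 falls, beside 975 and 1290. In mutant B12 against mutant vehicle RLE scaling gave 7 rises without a fall, beside 3462 and 3285 over 14795 genes. DESeq2 gave 9 rises without a fall there, beside 3562 and 3396.

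Levels of the 40 genes spanned a wide range. Per length, averaged over the 9 libraries, cytochrome c (*cyc-2.1*) led with 1605 TPM (range over libraries 1368 to 1964). It was followed by the ATP synthase subunit beta *atp-2* with 1251 TPM, the complex IV subunit *cox-6C* with 1239 TPM and the ATP synthase subunit alpha *atp-1* with 1011 TPM. At the low end, *ucr-2.3* had 24.9 TPM (14.9 to 34.1) and *asb-1* had 94.6 TPM (63.5 to 124), and each has a paralog among the 40. The ranges of *atp-2* and *cox-6C* overlapped. Of the 40 genes, 13 lie on chromosome I, 11 on chromosome III, 6 on the X chromosome, 4 on chromosome II and 3 each on chromosomes IV and V (WBcel235 annotation).

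In complex I, 10 of the 13 genes were called in no comparison, while *nduf-6* was called in mutant vehicle against wild type and *nuo-6* in mutant B12 against mutant vehicle. *nuo-1*, the flavoprotein subunit that binds NADH, had 472, 480.2 and 485 CPM in the mutant B12 libraries, 445, 442 and 424 CPM in the mutant vehicle libraries and 447, 435 and 409.6 CPM in the wild-type libraries. Mutant B12 libraries lay above all others, but the difference did not pass (log2 fold change 0.15 ± 0.07 SE, adjusted p = 0.179 against wild type, and 0.13 ± 0.07, adjusted p = 0.144 against mutant vehicle). *nuo-5*, which carries iron-sulfur clusters (NDUFS1 in mammals), had log2 fold changes of 0.06, 0.01 and 0.07 in mutant vehicle against wild type, mutant B12 against mutant vehicle and mutant B12 against wild type. In the same order *nuo-2* (NDUFS3) had -0.01, 0.03 and 0.02, and *nduf-7* (NDUFS7) had 0.02, 0.09 and 0.11. None of these 4 genes was called, and their log2 fold changes stayed between -0.01 and 0.15.

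Among the other subunits of complex I, *nduf-6* (NDUFS6; chromosome I, 7090740 to 7091361) had 94.5, 97.3 and 100.4 CPM in the mutant B12 libraries, 114.4, 112 and 112.8 CPM in the mutant vehicle libraries and 104.3, 85.4 and 92.4 CPM in the wild-type libraries. The mutant vehicle libraries lay above all others and close together. *nduf-6* rose in mutant vehicle against wild type (0.27 ± 0.09, adjusted p = 0.031), a call lost in 11 of 20 alternatives, and mutant B12 differed from mutant vehicle by -0.22 ± 0.09 (adjusted p = 0.0583). Of the exon bases of *nduf-6*, 10.4% overlap *prpf-4* on the opposite strand, and the sources used here do not give whether the counting used strand. *nuo-6* (NDUFB4; chromosome I, 7068116 to 7069186), known for long-lived mutants, had 193, 196 and 219.5 CPM in the mutant B12 libraries, 163, 158 and 159.7 CPM in the mutant vehicle libraries and 196, 168 and 179.5 CPM in the wild-type libraries. Mutant vehicle lay below both other groups, and mutant B12 overlapped wild type. The gene rose in mutant B12 against mutant vehicle (0.34 ± 0.08, adjusted p = 0.00767), while mutant vehicle differed from wild type by -0.18 ± 0.08 (adjusted p = 0.133) and mutant B12 from wild type by 0.16 ± 0.08 (adjusted p = 0.236). That rise was called in 18 of 20 alternatives. It was lost with limma on log2(TPM + 1) (0.19, adjusted p = 0.0503) and in a fit with a spermatogenesis covariate (0.46, adjusted p = 0.538). The other 5, *lpd-5* (NDUFS4), *nuo-4* (NDUFA10), *nduf-5* (NDUFS5), *nduf-9* (NDUFA9) and *nduf-11* (NDUFA11), had log2 fold changes between -0.13 and 0.22, the highest being that of *lpd-5* in mutant B12 against mutant vehicle (adjusted p = 0.0724).

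*nuo-3* (NDUFA6) shares 72.6% of its exon bases with an overlapping gene on the same strand, under whose name the CPM table lists the locus, so its reads cannot be assigned to it with certainty. In the count tables *nuo-3* had 215, 217 and 232 CPM in the mutant B12 libraries, 232, 236 and 259.6 CPM in the mutant vehicle libraries and 278, 234 and 253 CPM in the wild-type libraries. The groups overlapped except that mutant B12 lay below wild type. It was called in no comparison, with log2 fold changes of -0.07 ± 0.09, -0.13 ± 0.09 and -0.20 ± 0.09 SE in mutant vehicle against wild type, mutant B12 against mutant vehicle and mutant B12 against wild type.

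Complex II, succinate dehydrogenase, is also an enzyme of the citric acid cycle. Of its 4 genes, 1 was called. *sdhd-1*, a membrane anchor subunit (chromosome II, 11049144 to 11049913), had 97.4, 101 and 97.6 CPM in the mutant B12 libraries, 117, 118 and 115 CPM in the mutant vehicle libraries and 110.5, 113.3 and 93.2 CPM in the wild-type libraries, so that mutant vehicle lay above both other groups without overlap and mutant B12 lay within the wild-type range. *sdhd-1* fell in mutant B12 against mutant vehicle (-0.24 ± 0.09, adjusted p = 0.0383), and this call was lost in 12 of 20 alternatives, DESeq2 among them (adjusted p = 0.066). *sdha-1*, the flavoprotein that oxidises succinate (chromosome X, 8542757 to 8546021), had 241, 244 and 250.1 CPM in the mutant B12 libraries, 278, 311 and 273 CPM in the mutant vehicle libraries and 282, 272 and 239 CPM in the wild-type libraries. Mutant B12 lay below mutant vehicle without overlap here too, and the difference missed the threshold (-0.23 ± 0.09, adjusted p = 0.0501). The iron-sulfur subunit *sdhb-1* and the anchor subunit *mev-1*, known for mutants sensitive to oxygen, had log2 fold changes between -0.12 and -0.02 over the 3 comparisons.

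In complex III edgeR called 0 of 6 genes in each comparison, and DESeq2 called 1, a rise in mutant B12 against mutant vehicle. At an unadjusted p under 0.05, *ucr-2.1* was higher in mutant vehicle than in wild type, *ucr-2.3* was higher and *ucr-2.1* lower in mutant B12 than in mutant vehicle, and 0 genes differed between mutant B12 and wild type. The Rieske iron-sulfur protein *isp-1*, known for long-lived mutants, had 456, 439 and 455 CPM in the mutant B12 libraries, 418, 463 and 439.9 CPM in the mutant vehicle libraries and 444, 414 and 407 CPM in the wild-type libraries, and these ranges overlapped. Cytochrome c1, *cyc-1*, and the core protein *ucr-1* had log2 fold changes between -0.15 and -0.01. The second core protein has 3 genes, *ucr-2.1* and *ucr-2.2* (chromosome X, 12018429 to 12021206, and chromosome X, 15173904 to 15178145) and *ucr-2.3* (chromosome III, 879860 to 881458). *ucr-2.1* had 276, 261 and 275 CPM in the mutant B12 libraries, 303, 327 and 306 CPM in the mutant vehicle libraries and 289, 271 and 240.2 CPM in the wild-type libraries, with mutant vehicle above both other groups (0.23 ± 0.08, adjusted p = 0.0556 against wild type, and -0.21 ± 0.08, adjusted p = 0.0689 for mutant B12 against mutant vehicle). *ucr-2.3* had 47.2, 56.5 and 29.7 CPM in the mutant B12 libraries, 32.3, 23.4 and 32.7 CPM in the mutant vehicle libraries and 40.1, 47.2 and 32.7 CPM in the wild-type libraries. Mutant vehicle had the lowest mean, but all groups overlapped, and the differences did not pass (-0.44 ± 0.23, adjusted p = 0.175; 0.59 ± 0.23, adjusted p = 0.063; 0.15 ± 0.23, adjusted p = 0.718, in the 3 comparisons). *ucr-2.2* had 186, 183 and 179.6 CPM in the mutant B12 libraries, 171, 179 and 173 CPM in the mutant vehicle libraries and 174, 186 and 183 CPM in the wild-type libraries, with log2 fold changes between -0.06 and 0.07 and no call, mutant B12 lying above mutant vehicle and both overlapping wild type.

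Cytochrome c, encoded by *cyc-2.1* (WBGene00017121, chromosome IV, 4747895 to 4749012), was higher in mutant vehicle than in wild type. It had 617, 563 and 594 CPM in the mutant B12 libraries, 700.4, 741 and 668 CPM in the mutant vehicle libraries and 616, 501 and 496 CPM in the wild-type libraries. Mutant vehicle lay above both other groups without overlap, and mutant B12 overlapped wild type. This rise in mutant vehicle against wild type (0.39 ± 0.10, adjusted p = 0.0101) was called in 19 of 20 alternatives, all but the fit with a spermatogenesis covariate (0.11, adjusted p = 0.85). Mutant B12 differed from mutant vehicle by -0.25 ± 0.10 (adjusted p = 0.0556) and from wild type by 0.14 ± 0.10 (adjusted p = 0.399).

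In complex IV, the nuclear subunits surround a catalytic core encoded in mitochondrial DNA. The small subunits *cox-6C* and *cox-7C* were highest in mutant B12. *cox-7C* (chromosome I, 9773172 to 9774012) had 201, 207 and 225 CPM in the mutant B12 libraries, 189, 199.99 and 172 CPM in the mutant vehicle libraries and 166, 144 and 111 CPM in the wild-type libraries, which left no overlap between any pair of groups. The gene rose in mutant vehicle against wild type (0.41 ± 0.13, adjusted p = 0.0321) and in mutant B12 against wild type (0.58 ± 0.13, adjusted p = 0.016), and differed by 0.17 ± 0.13 (adjusted p = 0.311) between mutant B12 and mutant vehicle. With a spermatogenesis covariate its difference between mutant vehicle and wild type was -0.014 (adjusted p = 0.99). The rise against wild type in mutant B12 was not called without mutant B12 replicate 3 (adjusted p = 0.05) or with limma on log2(TPM + 1). That in mutant vehicle was lost in 9 of 20 alternatives.

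*cox-6C* (chromosome IV, 126731 to 127640) had 310.4, 311 and 335 CPM in the mutant B12 libraries, 268, 252 and 236 CPM in the mutant vehicle libraries and 262, 219.6 and 200.3 CPM in the wild-type libraries. The mutant B12 libraries lay above all others. *cox-6C* rose in mutant B12 against wild type (0.49 ± 0.10, adjusted p = 0.0117), the only call of the 17 on the 40 genes that held in all 20 alternatives, and in mutant B12 against mutant vehicle (0.34 ± 0.10, adjusted p = 0.0205). The second of these was not called without mutant vehicle replicate 2 (0.056), mutant vehicle replicate 3 (0.098) or mutant B12 replicate 3 (0.054). It was also lost with limma on log2(TPM + 1) (0.21, adjusted p = 0.081) and with a spermatogenesis covariate (0.57, adjusted p = 0.508). *cox-5A* (chromosome III, 12905491 to 12906619) had 597, 583 and 619 CPM in the mutant B12 libraries, 522, 538 and 509 CPM in the mutant vehicle libraries and 558, 559.8 and 512 CPM in the wild-type libraries, mutant B12 being above both other groups, and rose in mutant B12 against mutant vehicle by a small amount (0.20 ± 0.07, adjusted p = 0.0448), a call lost in 12 of 20 alternatives. *cox-5B* had 398, 397 and 433 CPM in the mutant B12 libraries, 359, 372 and 359.9 CPM in the mutant vehicle libraries and 385, 341 and 314 CPM in the wild-type libraries, and *cox-6A* had 244, 247 and 269 CPM in the mutant B12 libraries, 248, 249 and 235 CPM in the mutant vehicle libraries and 237, 194 and 191 CPM in the wild-type libraries. Both were higher in every mutant B12 library than in any wild-type library and did not pass (0.24 ± 0.09, adjusted p = 0.103, and 0.29 ± 0.10, adjusted p = 0.0734). *cox-6B* and *cox-4* had log2 fold changes between -0.07 and 0.16 in the 3 comparisons.

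**Figure D2:**
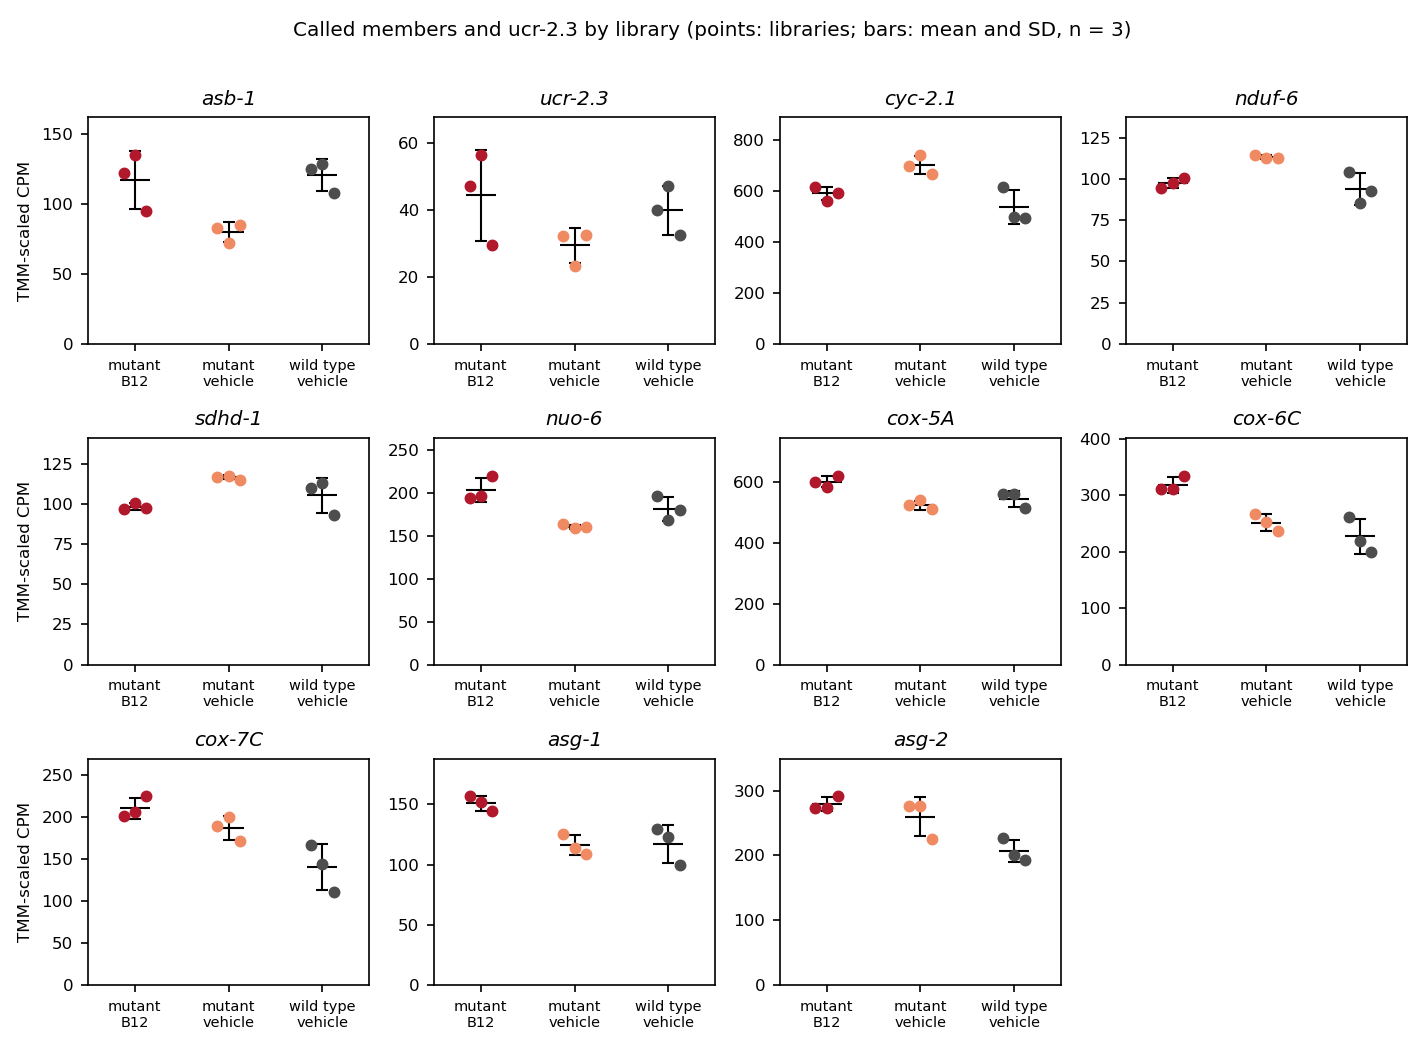
TMM-scaled CPM (vertical axis, from 0) by library for 10 called genes and *ucr-2.3*; points are libraries, bars are the mean and SD of 3. In the top row *asb-1* is lowest in mutant vehicle, with all 3 libraries below the other groups, and *cyc-2.1* and *nduf-6* are highest there, while *cox-6C* in the middle row is highest in mutant B12.

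In complex V the alpha and beta subunits of the catalytic head were not called. Subunit alpha *atp-1* had 2507, 2342 and 2118 CPM in the mutant B12 libraries, 2283, 2595 and 2433 CPM in the mutant vehicle libraries and 2685, 2899.6 and 2526 CPM in the wild-type libraries, with log2 fold changes of -0.15, -0.07 and -0.22 ± 0.09 SE (adjusted p = 0.14) in mutant vehicle against wild type, mutant B12 against mutant vehicle and mutant B12 against wild type. Subunit beta *atp-2* had 2888, 2801 and 2484 CPM in the mutant B12 libraries, 2746, 3078 and 2946 CPM in the mutant vehicle libraries and 2853, 2979 and 2632 CPM in the wild-type libraries. Its log2 fold changes were 0.05, -0.10 and -0.05, and the groups overlapped throughout. Of the stalk, *atp-3* (OSCP), *atp-4* (F6) and *atp-5* (subunit d) had log2 fold changes between -0.15 and 0.14, none of them called. The lowest of these was that of *atp-5* in mutant B12 against wild type (-0.15 ± 0.07, adjusted p = 0.182), with 668, 644 and 640.1 CPM in the mutant B12 libraries, 658, 719 and 705 CPM in the mutant vehicle libraries and 728, 742 and 703 CPM in the wild-type libraries. There the groups did not overlap, as for *atp-1*.

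Subunit b of the stalk, which holds the head in place, is encoded by *asb-1* (WBGene00000206, chromosome III, 4594543 to 4595821) and *asb-2* (WBGene00000207, chromosome X, 4469766 to 4471476). *asb-1* is known as the form of the worm germ line, and it had 122, 135 and 94.5 CPM in the mutant B12 libraries, 82.8, 71.9 and 84.8 CPM in the mutant vehicle libraries and 125, 129 and 108 CPM in the wild-type libraries. All mutant vehicle libraries lay below all others, and mutant B12 overlapped wild type. *asb-1* fell in mutant vehicle against wild type (-0.59 ± 0.13, adjusted p = 0.00537, called in 19 of 20 alternatives, all but the spermatogenesis covariate, adjusted p = 0.576) and rose in mutant B12 against mutant vehicle (0.55 ± 0.13, adjusted p = 0.00624). The rise was called in 18 of 20 alternatives, all but limma on log2(TPM + 1) (0.39, adjusted p = 0.0577) and the spermatogenesis covariate (0.32, adjusted p = 0.805). Mutant B12 differed from wild type by -0.04 ± 0.13 (adjusted p = 0.871). *asb-2* had 556, 528 and 566 CPM in the mutant B12 libraries, 566, 648 and 606 CPM in the mutant vehicle libraries and 594, 573 and 542 CPM in the wild-type libraries and was not called, with 0.09 ± 0.08, -0.14 ± 0.08 and -0.05 ± 0.08 in the 3 comparisons.

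Subunit g is encoded by *asg-1* (chromosome I, 8692946 to 8693468) and *asg-2* (chromosome X, 6841258 to 6842121). *asg-1* had 157, 152.1 and 144 CPM in the mutant B12 libraries, 125, 114.1 and 109 CPM in the mutant vehicle libraries and 129, 123 and 99.3 CPM in the wild-type libraries. Mutant B12 lay above both other groups without overlap. The gene rose in mutant B12 against mutant vehicle (0.38 ± 0.11, adjusted p = 0.013, and 0.075 without mutant vehicle replicate 3) and against wild type (0.37 ± 0.10, adjusted p = 0.0434), the second a call lost in 12 of 20 alternatives. The first was also lost with limma on log2(TPM + 1) (0.24, adjusted p = 0.0949) and with a spermatogenesis covariate (0.465, adjusted p = 0.618). *asg-2* had 273, 274 and 291 CPM in the mutant B12 libraries, 277, 277 and 225 CPM in the mutant vehicle libraries and 227, 201 and 193 CPM in the wild-type libraries, so mutant vehicle replicate 3 lay within the wild-type range. Its rises were in mutant vehicle against wild type (0.33 ± 0.10, adjusted p = 0.0265), a call lost in 8 of 20 alternatives, and in mutant B12 against wild type (0.43 ± 0.10, adjusted p = 0.0182). That last rise was lost in 3 of 20 alternatives, without wild-type replicate 2 (0.062), without mutant B12 replicate 3 (0.051) and with limma on log2(TPM + 1).

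Several subunits are encoded by paralogous genes, and the ratio of one copy to the other was compared between groups. No difference in ratio could pass Benjamini-Hochberg adjustment at 0.05, because the smallest exact permutation p of 3 libraries against 3 is 0.1. In *C. elegans* the X chromosome is known to be largely silent in germ cells. The pairs *asb-1* with *asb-2*, *asg-1* with *asg-2* and *ucr-2.3* with *ucr-2.2* each have an autosomal and an X-linked gene. The ratio of TPM of *asb-1* to *asb-2* was 0.245, 0.291 and 0.188 in the mutant B12 libraries, 0.163, 0.126 and 0.156 in mutant vehicle and 0.240, 0.259 and 0.231 in wild type. In mutant vehicle it lay below both other groups, with a log2 difference of -0.72 from wild type, and mutant B12 differed from mutant vehicle by 0.69. Both differences had an exact two-sided permutation p of 0.1, the smallest that 3 libraries against 3 can give (0.191 after Benjamini-Hochberg adjustment over 21 tests of ratios). The other pairs are given in the same order of comparisons.

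The ratio of *asg-1* to *asg-2* was 0.652, 0.626 and 0.556 in mutant B12, 0.505, 0.469 and 0.550 in mutant vehicle and 0.637, 0.697 and 0.570 in wild type, lowest in mutant vehicle without overlap (log2 differences -0.32 and 0.27, exact permutation p = 0.1 each). In mutant vehicle against wild type *asg-2* rose (0.33) and autosomal *asg-1* did not change (-0.01, adjusted p = 0.937 by edgeR). In the *asb* pair it was autosomal *asb-1* that fell (-0.59). For *ucr-2.3* to *ucr-2.2* the groups overlapped (log2 differences -0.41 and 0.49, exact permutation p = 0.3 each). Between the X-linked pair *ucr-2.1* and *ucr-2.2* the ratio was 1.44, 1.396 and 1.48 in mutant B12, 1.73, 1.79 and 1.71 in mutant vehicle and 1.60, 1.39 and 1.25 in wild type and highest in mutant vehicle (log2 differences 0.31 and -0.27, exact permutation p = 0.1 each). For these 4 pairs mutant B12 and wild type overlapped, with log2 differences between -0.05 and 0.08 (exact permutation p of 0.6 or more). Reads shared by close copies are divided by kallisto's model, so these ratios are uncertain to that extent.

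A pair of genes outside the set, chosen after their values were seen, gives the partner of *sdha-1* and of *cyc-2.1*. *sdha-2* on chromosome I, the autosomal partner of X-linked *sdha-1*, had 51.5, 50.5 and 30.5 CPM in the mutant B12 libraries, 36.3, 25.2 and 32.8 CPM in the mutant vehicle libraries and 45.3, 56.4 and 40.4 CPM in the wild-type libraries. Its ratio to *sdha-1* was lower in mutant vehicle than in wild type (log2 difference -0.80, exact permutation p = 0.1), and mutant B12 overlapped both (differences 0.70 from mutant vehicle, p = 0.2, and -0.10 from wild type, p = 0.8). *cyc-2.2*, the second cytochrome c gene (chromosome V, 12611682 to 12612218), had 30.2, 36.5 and 25.3 CPM in the mutant B12 libraries, 11.3, 6.02 and 8.64 CPM in the mutant vehicle libraries and 16.6, 24.05 and 24.1 CPM in the wild-type libraries, while *cyc-2.1* was highest in mutant vehicle. *cyc-2.2* fell in mutant vehicle against wild type (-1.32 ± 0.24, adjusted p = 0.00179) and rose in mutant B12 against mutant vehicle (1.83 ± 0.24, adjusted p = 0.000229). Both changes were larger than any among the 40 genes.

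**Figure D3:**
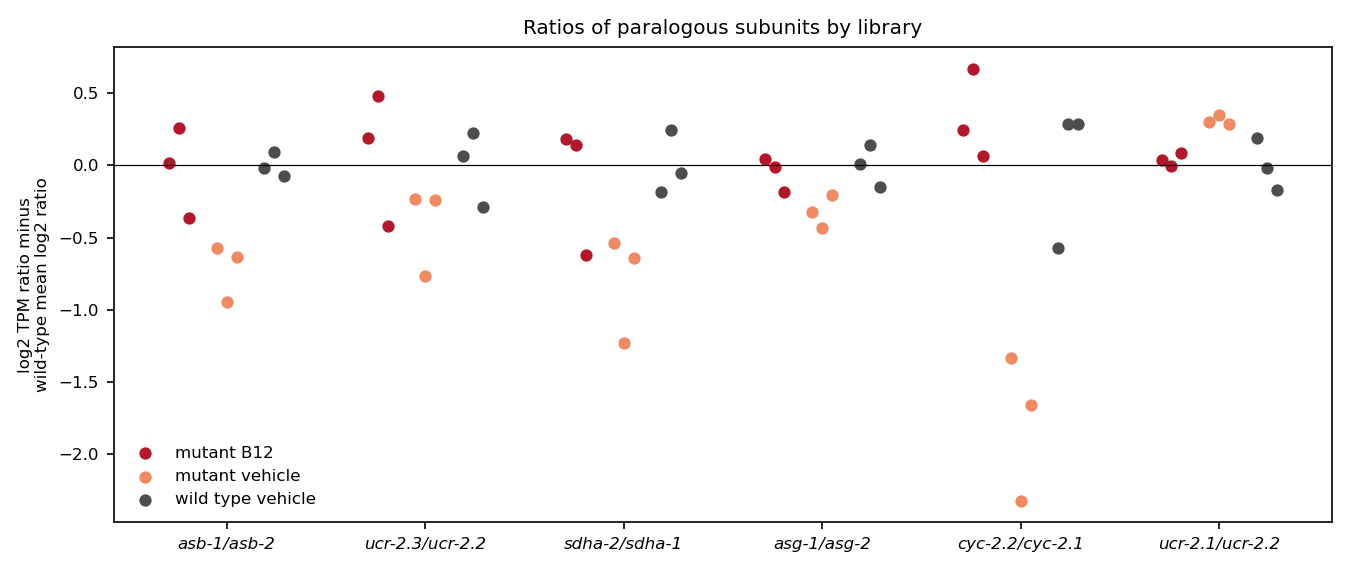
Log2 ratio of TPM of paralogous subunits in each library, minus the mean log2 ratio of the wild-type libraries (vertical axis); points are libraries. The first 4 pairs have an autosomal gene over an X-linked one, *cyc-2.2*/*cyc-2.1* are both autosomal and *ucr-2.1*/*ucr-2.2* both X-linked. Mutant vehicle lies lowest for the first 5 pairs, with overlap for *ucr-2.3*/*ucr-2.2* and *sdha-2*/*sdha-1*, and highest for the last.

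Germ-line markers were counted in the same comparisons. Of 17 tested oocyte markers, 1 rose and 1 fell in mutant vehicle against wild type (median -0.33), and 16 were below 0. In mutant B12 against mutant vehicle 8 of them rose and 1 fell (median 0.76), beside 22.6% of all tested genes called higher. Of 48 tested spermatogenesis markers, 39 fell in mutant vehicle against wild type (median -1.47) and 45 rose in mutant B12 against mutant vehicle (median 1.93), beside 18.3% and 22.6% of all tested genes called in these directions. Of 24 general germ-line markers, 5 fell (median -0.27) and 9 rose (median 0.30) in the same comparisons, the falls being near the share over all genes. The summed level of the general germ-line markers was 1028 to 1761 CPM in mutant B12, 949 to 1351 CPM in mutant vehicle and 1323 to 1727 CPM in wild type. With a covariate for the level of spermatogenesis markers in each library, edgeR called 0 of the 40 genes in mutant vehicle against wild type and 0 in mutant B12 against mutant vehicle, and at an unadjusted p under 0.05 there were 1 and 3. The covariate inflated the variance of these comparisons by factors of 4.80 and 7.19, and 486 and 98 calls were left over all genes. Spermatogenesis level and group cannot be told apart there. In mutant B12 against wild type, where the factor was 1.29, 3 of the 4 calls remained. Body-wall muscle, a tissue rich in mitochondria, had 19 markers, of which 1 fell in mutant vehicle against wild type, and 1 rose and 1 fell in mutant B12 against mutant vehicle. Summed hypodermis markers were 9871 to 13132 CPM in mutant B12, 4918 to 6613 CPM in mutant vehicle and 12258 to 13709 CPM in wild type. Their part in the changes of the respiratory chain genes was not tested.

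The genes called higher in a mutant group than in wild type had short transcripts. All 4 called in mutant B12 against wild type were under 700 bases long (*cox-7C* 391, *cox-6C* 396, *asg-1* 477 and *asg-2* 522 bases, as means over transcripts weighted by counts), and so were all 4 rises in mutant vehicle against wild type (with *cyc-2.1* at 530 and *nduf-6* at 602). The limit of 700 bases was chosen after the values were seen. The 14 genes below it had a median log2 fold change of 0.15 in mutant B12 against wild type and 0.14 in mutant vehicle against wild type, and the 26 longer ones had -0.01 and -0.02. Across the 40 genes Pearson's r between log2 fold change and log2 length was -0.63 (Spearman's rho -0.54) in mutant B12 against wild type, -0.38 (-0.33) in mutant vehicle against wild type and -0.12 (-0.23) in mutant B12 against mutant vehicle. These are descriptions across genes of the same libraries, and genes are not independent replicates.

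Over all abundant genes, shorter transcripts were on the median higher in mutant B12 against wild type and against mutant vehicle. There was little relation to length in mutant vehicle against wild type. Among the 1878 tested genes averaging at least 100 CPM, the 225 with transcripts under 700 bases had a median log2 fold change of 0.23 in mutant B12 against wild type, with 76 rises and 10 falls, and the 1653 longer ones had -0.01, with 190 and 181 (Pearson's r with log2 length -0.22, Spearman's rho -0.33). In mutant vehicle against wild type the same medians were 0.10 for the shorter and 0.06 for the longer genes (r = 0.00, rho = 0.00). In mutant B12 against mutant vehicle they were 0.12, with 63 rises and 27 falls, and -0.09, with 341 and 534 (r = -0.18, rho = -0.22). The libraries also differed in a measure of fragment length. The median difference between length and effective length, over 6883 transcripts longer than 2000 bases, was 306 to 309 bases in mutant B12, 279 to 305 in mutant vehicle and 329 to 359 in wild type, so both mutant groups lay below wild type. Its part in these changes was not tested. With length-scaled counts, which correct for effective length, 5 of the 40 genes rose in mutant B12 against wild type, the 4 above among them, and on the log2 TPM scale limma called 1 rise, *cox-6C*.

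**Figure D4:**
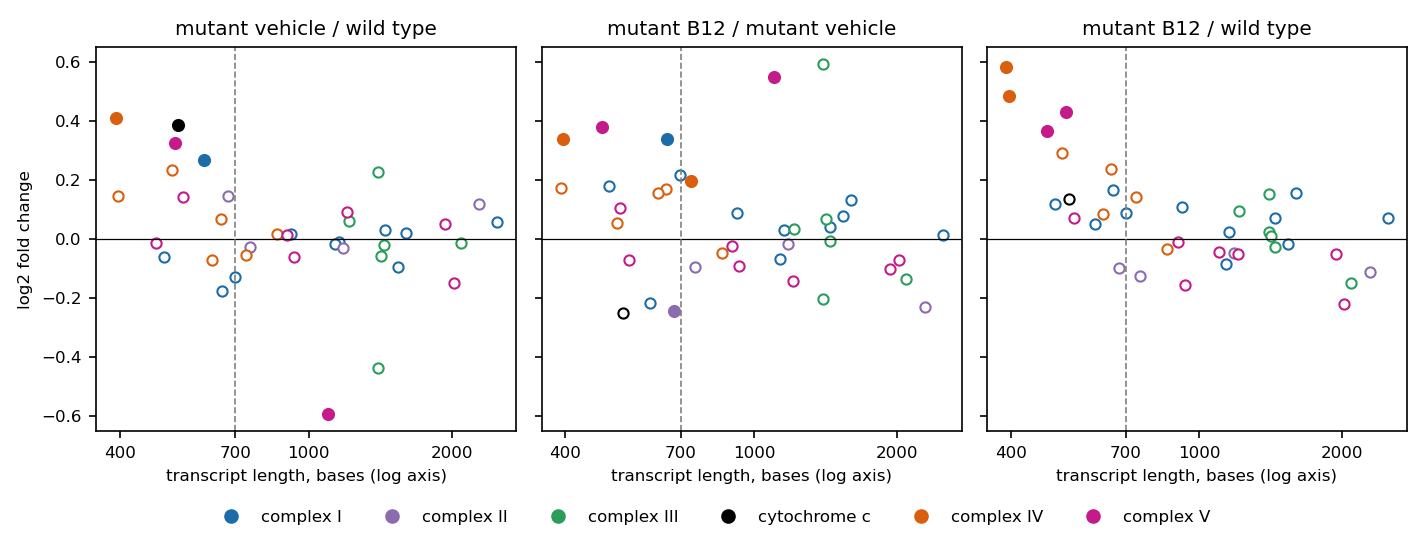
Log2 fold change (vertical axis) against transcript length in bases (horizontal log axis) for 38 of the genes, coloured by complex, in the 3 comparisons; filled points have an adjusted p under 0.05 and the dashed line marks 700 bases. Filled points in the right panel all lie left of the line, and the fall of *asb-1* in the left panel lies right of it.

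Subunits encoded in mitochondrial DNA, the partners of these proteins, held a smaller share of counts in mutant vehicle than in wild type. All 12 protein-coding genes held 1.148% to 1.53% of counts in mutant B12, 0.969% to 1.21% in mutant vehicle and 1.299% to 1.52% in wild type. Mutant vehicle lay below wild type without overlap and overlapped mutant B12 (exact two-sided permutation p = 0.1, the smallest possible, and p = 0.3; 0.45 each after adjustment over 9 tests of shares). Their count relative to that of the 40 nuclear genes was 0.814 ± 0.148 in mutant B12, 0.673 ± 0.0679 in mutant vehicle and 0.831 ± 0.0552 in wild type (SD, n = 3 each). Selection for poly(A), which bears on mitochondrial transcripts, is not stated in the labels.

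The complex IV subunit COX3 had 1762, 1878 and 2417 CPM in the mutant B12 libraries, 1451, 1721 and 1662 CPM in the mutant vehicle libraries and 2435, 2137 and 2289 CPM in the wild-type libraries. Mutant vehicle lay below both other groups. COX3 fell in mutant vehicle against wild type (-0.51 ± 0.12, adjusted p = 0.00815) and rose in mutant B12 against mutant vehicle (0.33 ± 0.12, adjusted p = 0.0478). The complex I subunit ND1 had 587, 646 and 787 CPM in the mutant B12 libraries, 473, 649 and 626 CPM in the mutant vehicle libraries and 813, 714 and 808 CPM in the wild-type libraries and fell in mutant vehicle against wild type (-0.42 ± 0.14, adjusted p = 0.0368). COX2 had 1372, 1480.2 and 1861 CPM in the mutant B12 libraries, 977, 1239 and 1132 CPM in the mutant vehicle libraries and 1484, 1262 and 1314 CPM in the wild-type libraries and rose in mutant B12 against mutant vehicle (0.49 ± 0.13, adjusted p = 0.00954). Of the others, in mutant vehicle against wild type, ND2 had a log2 fold change of -0.67, ND3 of -0.73, ND4 of -0.41, ND5 of -0.45, ND6 of -0.46, CYTB of -0.31, ATP6 of -0.21 and COX1 of 0.01, none called. ND4L had under 2 CPM in every library and differed by 0.40. The median of the 12 was -0.41 in mutant vehicle against wild type, 0.21 in mutant B12 against mutant vehicle and -0.12 in mutant B12 against wild type, where edgeR and DESeq2 called 0 and 1 was lower at an unadjusted p under 0.05. On the log2 TPM scale, however, limma called 5 of the 12 lower in mutant B12 than in wild type, beside 3751 of all 14795 tested genes. The summed TPM of the 12 was 15365 to 20351 in mutant B12 and 21967 to 23782 in wild type, without overlap. The 2 falls in mutant vehicle against wild type and the 2 rises in mutant B12 against mutant vehicle stand beside 18.3% and 22.6% of all tested genes. Mutant vehicle replicate 1 was the lowest library for 11 of the 12. The 2 falls became 1 without mutant vehicle replicate 1, wild-type replicate 1 or 3 or mutant B12 replicate 2. They were 4 with DESeq2, 6 with length-scaled counts and 8 on the log2 TPM scale. Over all tested genes these settings called 3003 of 14795, 2881 of 14804 and 3301 of 14795 lower. The 2 rises became 1 without any single library other than wild-type replicate 1 or mutant B12 replicate 1.

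**Figure D5:**
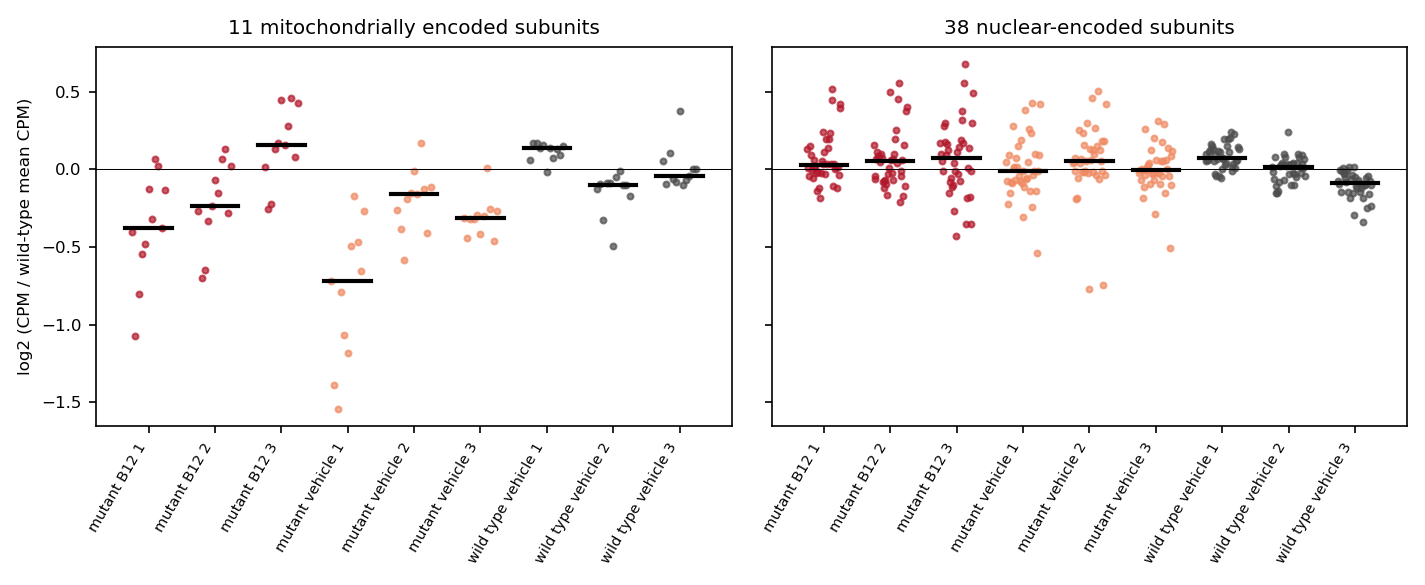
Log2 of CPM over the wild-type mean CPM (vertical axis) in each of the 9 libraries, for 11 subunits encoded in mitochondrial DNA (left, without ND4L) and 38 of the nuclear-encoded subunits (right); points are genes and bars their median. The mitochondrial medians range over libraries far more than the nuclear ones, and the lowest is that of mutant vehicle replicate 1.

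Nuclear genes outside the 40 were taken from a list of other subunits that also holds *mai-1*, the gene of an ATP synthase inhibitor. From this list 33 genes were found. Of these, 3 rose and 1 fell in mutant vehicle against wild type, 9 rose and 1 fell in mutant B12 against mutant vehicle, and 8 rose in mutant B12 against wild type (median 0.23). In the last comparison DESeq2 gave 13 rises, beside 1464 over 14795 genes. Falls there numbered 0 by edgeR and by DESeq2, and 2 at an unadjusted p under 0.05. The shares called among all tested genes were 36.6%, 46.4% and 13.4% in these comparisons, above those of the 33 genes in the comparisons of mutant vehicle with wild type and of mutant B12 with mutant vehicle and below theirs in that of mutant B12 with wild type. Among genes averaging at least 100 CPM, a level not reached by all of the 33, the shares were 42.5%, 51.4% and 24.3%. The last of these was near the share of the 33 genes. The 8 rises in mutant B12 against wild type became 15 without wild-type replicate 1, 3 without wild-type replicate 2, and 4 or 5 without any other library except mutant vehicle replicate 2. On the log2 TPM scale there were 3 rises and 7 falls, beside 779 and 3751 over 14795 genes. The 4 calls in mutant vehicle against wild type became 2 when replicate 2 of either group, wild-type replicate 3 or mutant vehicle replicate 1 was left out, and 7 without wild-type replicate 1, and the 10 in mutant B12 against mutant vehicle became 6 without mutant vehicle replicate 3. Subunit epsilon of ATP synthase, *hpo-18* (transcript of 291 bases), had 189.8, 181 and 209.7 CPM in the mutant B12 libraries, 153, 125 and 109 CPM in the mutant vehicle libraries and 129, 102 and 101 CPM in the wild-type libraries and rose against wild type by 0.81 ± 0.14 (adjusted p = 0.00363). The complex I subunit *ndua-2* (367 bases) rose by 0.60 ± 0.10 (adjusted p = 0.00356). *mai-1*, an inhibitor of ATP synthase, had 9.03, 10.19 and 9.505 CPM in the mutant B12 libraries, 17.4, 20.1 and 16.97 CPM in the mutant vehicle libraries and 13.1, 11.3 and 11.9 CPM in the wild-type libraries and was the fall in mutant B12 against mutant vehicle (-0.92 ± 0.13, adjusted p = 0.000353), after a rise in mutant vehicle against wild type (0.58 ± 0.13, adjusted p = 0.0054).

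Other mitochondrial lists had calls in both directions, and their counts stand beside 36.6% of all tested genes called in mutant vehicle against wild type, 46.4% in mutant B12 against mutant vehicle and 13.4% in mutant B12 against wild type. Of 18 assembly factors, 2 rose and 5 fell in mutant B12 against mutant vehicle, among the falls *nuaf-1* of complex I assembly (-0.58 ± 0.11, adjusted p = 0.00133) and *cox-10* of haem A synthesis (-0.56 ± 0.14, adjusted p = 0.00709). *cox-17*, a copper chaperone of complex IV, had 16.1, 15.3 and 17.9 CPM in the mutant B12 libraries, 12.3, 9.04 and 7.28 CPM in the mutant vehicle libraries and 7.33, 5.59 and 3.904 CPM in the wild-type libraries and rose in mutant B12 against wild type (1.55 ± 0.25, adjusted p = 0.00269). Of 8 genes of ubiquinone synthesis 2 rose in mutant vehicle against wild type and 3 fell in mutant B12 against mutant vehicle, among both *coq-1*, which makes the side chain (0.37 ± 0.09, adjusted p = 0.00972, and -0.62 ± 0.09, adjusted p = 0.000495). Of 19 genes of the citric acid cycle 2 rose and 2 fell in mutant vehicle against wild type, and 3 rose and 8 fell in mutant B12 against mutant vehicle, with aconitase *aco-2* among the first rises (0.40 ± 0.08, adjusted p = 0.00275) and among the later falls (-0.60 ± 0.08, adjusted p = 0.000233). Citrate synthase, *cts-1*, also fell in mutant B12 against mutant vehicle (-0.44 ± 0.08, adjusted p = 0.00178). Of 65 mitochondrial ribosomal protein genes 1 rose and 10 fell, and 8 rose and 5 fell, in the same comparisons. In mutant B12 against wild type 1 assembly factor rose (*cox-17*) and 2 fell, and 1 gene of ubiquinone synthesis fell. There 1 gene of the citric acid cycle rose and 2 fell, and 2 mitochondrial ribosomal protein genes rose and 4 fell. The medians of these lists there were -0.14, -0.12, -0.18 and -0.08.

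Carriers and import factors included both directions. Of 17 tested, 5 rose and 2 fell in mutant vehicle against wild type, and 3 rose and 7 fell in mutant B12 against mutant vehicle, beside 36.6% and 46.4% of all tested genes called. The inner membrane translocase *timm-23* had 102, 94.3 and 109 CPM in the mutant B12 libraries, 180.1, 196 and 183 CPM in the mutant vehicle libraries and 122, 89.6 and 81.3 CPM in the wild-type libraries, and was thus higher in mutant vehicle than in wild type (0.93 ± 0.14, adjusted p = 0.00052) and lower in mutant B12 than in mutant vehicle (-0.87 ± 0.14, adjusted p = 0.000592). The adenine nucleotide carriers *ant-1.3* (-0.93 ± 0.22 and 1.24 ± 0.22) and *ant-1.4* (-0.93 ± 0.21 and 1.22 ± 0.21), close copies whose reads may be shared, fell in mutant vehicle against wild type and rose in mutant B12 against mutant vehicle, while the abundant *ant-1.1* differed by 0.15 ± 0.09 (adjusted p = 0.19) in mutant vehicle against wild type and fell in mutant B12 against mutant vehicle (-0.29 ± 0.09, adjusted p = 0.0179). Intestine markers, 14 genes, had 9 rises and 1 fall in mutant vehicle against wild type and 1 rise and 11 falls in mutant B12 against mutant vehicle. Their part in the changes of these lists was not tested.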

How the data were processed

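RNA of whole L4 animals was sequenced as paired ends from NEBNext Ultra libraries, per the labels' protocols. The authors quantified transcripts of WormBase WS245 with kallisto 0.46.0 after bcl2fastq, per the labels, and deposited estimated counts, TPM, lengths and effective lengths per transcript. They also deposited a CPM table per gene, whose values equalled CPM of the summed estimated counts within 1% for 99.65% of matched entries and 40 of 40 genes. The members and all lists were chosen with earlier results of these data known.

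Estimated counts were summed per gene and rounded. edgeR 4.0.16 (R 4.3.3) used filterByExpr, TMM scaling, a robust quasi-likelihood fit with all 9 libraries, and adjusted p-values (Benjamini-Hochberg) over the 14795 genes kept of 20444. The SE is the log2 fold change over the square root of F. CPM in the text are TMM-scaled, coordinates are WBcel235. Described in full were, per comparison, the 10 members with the smallest adjusted p and the paralog pairs, and of other lists up to 4 called genes with the smallest adjusted p, of which a subset is given. A pair of genes that enters the counts and medians is not reported here by itself. Ratios and shares were compared by exact permutation. Alternatives were scaling by RLE or the upper quartile, testing without a filter, 5 CPM in 3 libraries, the 6 libraries compared, a replicate block, length-scaled counts, a spermatogenesis covariate, DESeq2 1.42.0, limma 3.58.1 on log2(CPM + 1) and log2(TPM + 1), and leaving out each library. Same-numbered libraries did not deviate together throughout (correlations between -0.22 and 0.37), and numbers were not used as pairs. Python 3.11.15 with scipy 1.17.1 served for the rest.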

Additional observations from a re-analysis of the deposited data

How the results depend on the processing

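The number of the 40 genes called, 6 in mutant vehicle against wild type, 7 in mutant B12 against mutant vehicle and 4 in mutant B12 against wild type, ranged over the leave-one-out fits from 2 to 8, from 3 to 10 and from 1 to 6. Their median log2 fold change ranged over these from -0.02 to 0.03, from 0.02 to 0.06 and from 0.01 to 0.09. With a spermatogenesis covariate 0, 0 and 3 genes were called, and the medians in mutant vehicle against wild type and in mutant B12 against mutant vehicle were -0.15 and 0.24. On log2(TPM + 1) 5, 13 and 15 were called, beside 5547, 7538 and 4530 of 14795 tested genes. The medians of the 40 were then -0.12 and -0.17 in the comparisons of mutant B12 with mutant vehicle and with wild type. Upper quartile scaling gave 4, 12 and 4 calls, beside 5360, 6654 and 2007 of 14795 tested genes. Fits of the 6 libraries compared gave 3, 10 and 3, beside 5102, 6964 and 1461 over all genes tested. A replicate block gave 6, 6 and 4 calls, with medians of 0.00, 0.04 and 0.06, lost *cox-5A* (adjusted p = 0.072), and gave 5 rises in place of 8 among the other nuclear subunits in mutant B12 against wild type and 1 in place of 2 among mitochondrially encoded ones in mutant B12 against mutant vehicle. Same-numbered libraries correlated between -0.22 and 0.37. The causes were not tested. Among single called genes the sign turned once, for *cox-7C* in mutant vehicle against wild type with the covariate (-0.014). RLE scaling, both filters, length-scaled counts, limma on deposited CPM and DESeq2 kept all 3 counts within 1.5 times. Counts of *ucr-2.3* were under 60 CPM in every library, and its intervals were the widest of the 40.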
